A study of Mus musculus with 18 samples.

Results

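The canonical PRC1 ring finger genes are Bmi1, Pcgf2, Ring1 and Rnf2, found by symbol among the spots of a custom mouse array. The array carries Polycomb and Trithorax group genes, and the study profiled them across donor age. The ring finger genes are 4 of the 64 genes on that array and occupy 8 of its 117 gene spots, 2 spots a gene. RNA came from mesenchymal stem cells that had been cultured out of inguinal fat of the mouse strain FVB. Donors of 5 ages were used, with 4 samples at 1 month, 3 each at 3, 6 and 12 months, and 2 at 24 months. All groups share the strain, the high-glucose DMEM culture and a passage limit (the fifth), no allele or agent is named, and age is the labelled difference between them. The labels describe the source of each sample as a single mouse. The 15 samples were hybridised to 18 arrays of 1 colour, and the second arrays of 1 month #1, 1 month #8 and 12 months #2 were averaged with their first.

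Polycomb repressive complex 1 (PRC1) keeps genes silent through cell division, and its catalytic core pairs a RING E3 ligase (Rnf2, also called Ring1B, or Ring1, also called Ring1A) with a PCGF partner. In the canonical complexes that partner is Bmi1 or Pcgf2 (also called Mel18), which join CBX and PHC subunits. The ligases place ubiquitin on histone H2A. Bmi1 is best known for holding down the cell cycle inhibitors of the Cdkn2a locus, through which it has been tied to self-renewal and senescence in many kinds of stem cell.

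In coordinates of the mouse build GRCm38.p6, Bmi1 lies at chr2:18677018-18686629, Pcgf2 at chr11:97688821-97702434, Rnf2 at chr1:151469398-151500991 and Ring1 at chr17:34020792-34024680. The promoter windows of the 4 genes, 250 bases before to 50 after the RefSeq gene start, are printed because the array separated the paralogues of each pair. They are Bmi1 at chr2:18676768-18677067 on the plus strand and, on the minus strand, Pcgf2 at chr11:97699599-97699898, Rnf2 at chr1:151500942-151501241 and Ring1 at chr17:34024631-34024930. Capitals mark CACGTG (the E-box that Myc and its relatives bind), CCATNTT (a core bound by Yy1) and TGACGT (the cAMP response element core), searched on both strands and chosen after the sequences were read. The marked stretches do not overlap.
Bmi1: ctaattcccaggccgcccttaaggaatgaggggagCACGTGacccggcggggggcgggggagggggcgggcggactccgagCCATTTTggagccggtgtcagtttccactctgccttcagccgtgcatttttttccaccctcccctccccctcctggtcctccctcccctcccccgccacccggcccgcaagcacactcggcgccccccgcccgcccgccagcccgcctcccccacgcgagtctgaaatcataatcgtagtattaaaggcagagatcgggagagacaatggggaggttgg
Pcgf2: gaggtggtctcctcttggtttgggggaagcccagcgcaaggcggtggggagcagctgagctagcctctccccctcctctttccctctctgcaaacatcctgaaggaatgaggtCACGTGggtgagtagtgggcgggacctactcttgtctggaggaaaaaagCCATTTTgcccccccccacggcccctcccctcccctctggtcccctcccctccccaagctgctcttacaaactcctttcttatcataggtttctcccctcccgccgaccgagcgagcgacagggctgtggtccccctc
Rnf2: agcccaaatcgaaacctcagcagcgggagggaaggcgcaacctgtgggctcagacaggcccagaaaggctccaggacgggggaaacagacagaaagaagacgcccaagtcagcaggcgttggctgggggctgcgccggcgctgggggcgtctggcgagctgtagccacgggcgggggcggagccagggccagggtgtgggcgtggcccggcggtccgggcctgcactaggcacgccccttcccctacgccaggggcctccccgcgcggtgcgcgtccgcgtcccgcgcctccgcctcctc
Ring1: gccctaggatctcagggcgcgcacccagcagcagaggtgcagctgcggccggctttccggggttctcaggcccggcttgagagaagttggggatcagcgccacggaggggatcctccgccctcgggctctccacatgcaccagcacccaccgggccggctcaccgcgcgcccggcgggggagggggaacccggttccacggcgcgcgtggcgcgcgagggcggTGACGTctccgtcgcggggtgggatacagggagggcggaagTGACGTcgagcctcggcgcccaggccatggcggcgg
The windows of Bmi1 and Pcgf2 each hold an E-box and, downstream of it, a Yy1 core. In Bmi1 these start 215 and 169 bases before the gene start, and in Pcgf2 137 and 88 bases before it. Of the 32851 windows in the RefSeq table, 7.15% hold CACGTG, 16.1% hold CCATNTT and 1.15% hold both. The Ring1 window holds TGACGT at 2 places, a hexamer found in 7.51% of all windows, and the Rnf2 window holds none of the 3 motifs. CpG pairs numbered 23 in Bmi1, 10 in Pcgf2, 30 in Rnf2 and 37 in Ring1, against a median of 7 over all windows. The gene start used for the Pcgf2 window lies inside the span of the gene, 2786 bases in from its upstream end. A match is a description of these letters and not a binding site.

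Of each pair of paralogues, the array called a single member present in most samples. Bmi1 was detected in 13 of 15 samples and Pcgf2 in 0, and Rnf2 was detected in 14 and Ring1 in 1, where detected means that at least 50% of the spots of the gene in a sample were called present by the authors. Such counts are not rare on this array: 42.2% of its 64 genes were detected in at least 13 samples, 35.9% in at least 14, 40.6% in at most 1 and 23.4% in 0. Without 12 months #3, the sample on the dimmest array, the counts were 12, 0, 14 and 1 of 14 samples in the same order, a check added after the data were seen. By array, Bmi1 was called present without Pcgf2 on 16 of 18 arrays, and neither gene was present on the other 2. Rnf2 was called present without Ring1 on 16 arrays, both were present on 1 and neither on 1.

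Each spot was also set against its own local background, a deposited column that gives the signal around the spot. The lowest, median and highest ratios over 36 spots were 1.36, 2.33 and 4.31 for Bmi1. For Pcgf2 they were 0.699, 0.999 and 1.23. Every Bmi1 spot thus lay above its surroundings, while the Pcgf2 spots straddled them.

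For Rnf2 the ratios ran over 1.21, 2.28 and 3.40. For Ring1 they ran over 0.356, 0.873 and 1.38, so the typical Ring1 spot was dimmer than its surroundings. Against the plasmid control PUC18 on the same array, the mean signals of Bmi1 and Rnf2 were higher on 18 of 18 arrays, that of Pcgf2 on 9 and that of Ring1 on 15. No spot of the 4 genes was marked as bleeding by the authors. A probe that gives no signal and a transcript that is not there cannot be told apart in these calls, and neither can less RNA per cell and fewer cells that carry it.

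**Figure D1:**
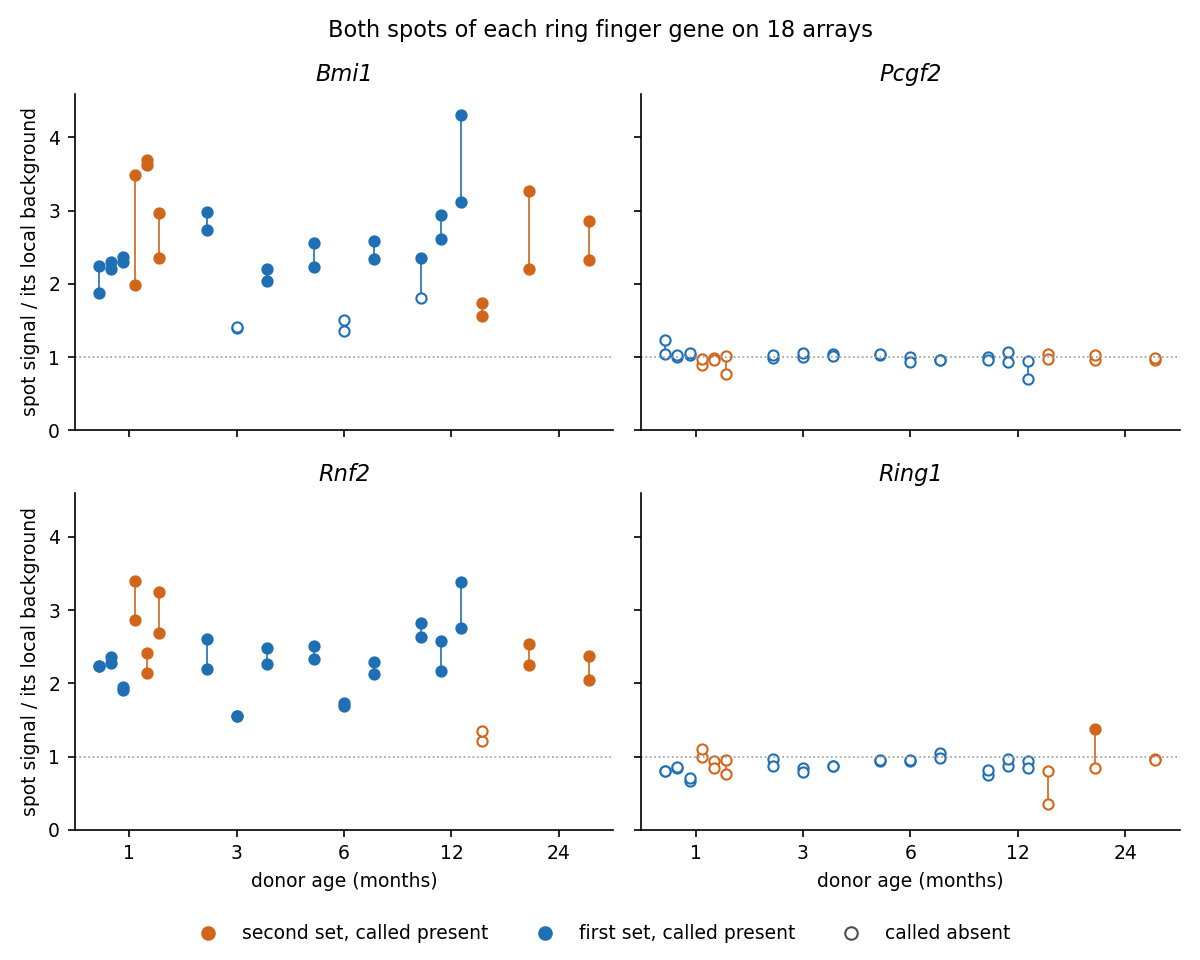
Signal of each spot divided by its own local background (vertical axis, no unit) by donor age in months, for 4 genes on 18 arrays. Lines join the 2 spots of a gene on an array, filled points were called present, open points absent, and colour gives the set of arrays. The Bmi1 and Rnf2 spots lie above 1 at every age, and the Pcgf2 spots lie between 0.699 and 1.23.

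The calls that break the pattern were few. Bmi1 was called absent on both spots in 3 months #8, where its mean pixel signal was 9315, and in 6 months #7, where it was 7551, the lowest signals of the gene on any array. The arrays of these samples ranked 7 and 3 from the dimmest by their median gene signal. The Bmi1 spots there still gave 1.39 and 1.42 times the local background in 3 months #8 and 1.36 and 1.504 times in 6 months #7. On the first array of 12 months #2, a single Bmi1 spot was called absent, at 1.80 times its local background. The Bmi1 spots of 12 months #3 were called present at 1.56 and 1.74 times, so the calls do not follow this ratio alone.

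Rnf2 was called absent only in 12 months #3, on both spots, at a mean pixel signal of 6231 and 1.21 and 1.35 times the local background. That array had the lowest median gene signal of all, 8286, and the fewest genes present, 23. Bmi1 was called present on it, with a signal of 11149. The part that array brightness has in these calls was not tested.

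Ring1 was called present on a single spot, in 24 months #1, with a signal of 11902 and 1.38 times its local background. The other Ring1 spot of that array had a signal of 6079 and 0.840 times its background. Ring1 detection in the oldest cells therefore rests on a single spot, the only 1 called present among the 36 Ring1 spots of all ages. In 12 months #3 a Ring1 spot called absent had a signal of 9865 amid a local background of 27730.

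Over the samples, mean pixel signals ran between 4236 and 10352 for Pcgf2. The Pcgf2 averages by age, not normalised for array brightness, were 6987, 6919, 5717, 5156 and 4932 at 1, 3, 6, 12 and 24 months. Ring1 averages were 7540, 7724, 6210, 6171 and 7096 at the same ages. These are levels at or near background, so the averages are not read as a change over age. In 1 month #5, where Pcgf2 was highest at 10352, PUC18 gave 10332. In 24 months #1 and #2 PUC18 gave 6191 and 4954, against 5270 and 4595 for Pcgf2.

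Agreement between the 2 spots of a gene followed the same division. The normalised log2 signals of the spots differed by a median of 0.48 for Bmi1 and 0.25 for Rnf2, against 1.72 for Pcgf2 and 1.00 for Ring1. Over the 18 arrays the spots correlated with Pearson r of 0.771 for Bmi1 and 0.787 for Rnf2, and of -0.025 for Pcgf2 and -0.053 for Ring1. Near background the normalisation spreads small differences. The Pcgf2 spots of 12 months #3 had pixel signals of 3967 and 4504 and normalised values of 6.06 and 9.06. The poorer agreement of Pcgf2 and Ring1 is therefore not evidence apart from their low signal. These correlations describe arrays that share their brightness, 3 of which repeat a sample, and carry no test.

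**Figure D2:**
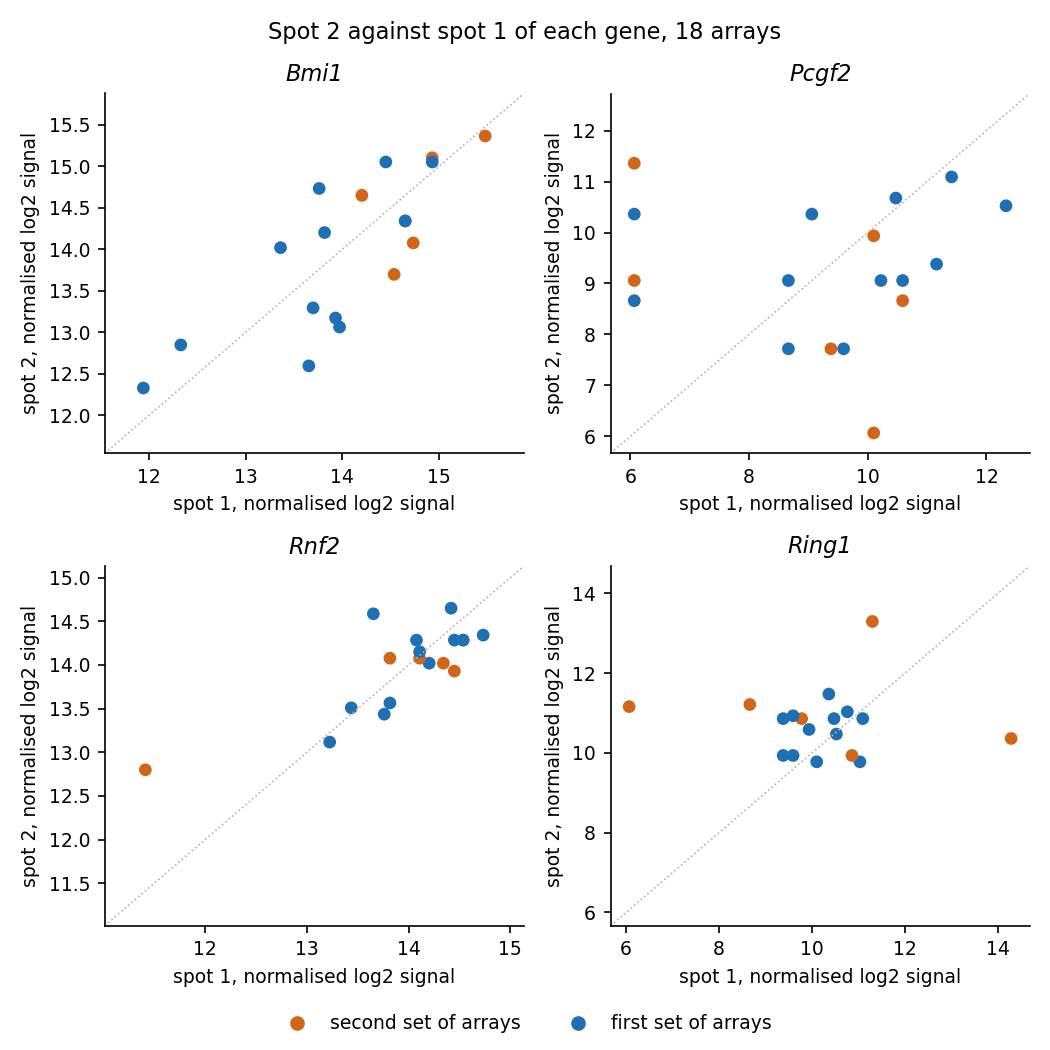
Normalised log2 signal of the second spot (vertical axis) against that of the first spot (horizontal axis) of each gene on 18 arrays, with the line of equality dotted and colour giving the set of arrays. The axes differ between panels. Bmi1 and Rnf2 run along the line and Pcgf2 and Ring1 scatter about it.

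The arrays were not equally bright and fall into 2 sets by the order of their columns in the deposited sheets, with columns of other samples between them, and no label gives a date. The median gene signal was 11660 pixel units over the 6 arrays of the second set and 21221 over the 12 of the first. Cells of 3 and 6 months were hybridised only in the first set and cells of 24 months only in the second, while 1 and 12 months occur in both. The raw signals of Bmi1 and Rnf2 followed array brightness with Spearman correlations of 0.620 and 0.783 over 18 arrays. After quantile normalisation they were -0.098 and 0.125 over 15 samples. The labelled cell type could not be checked by markers, since only 1 of 8 stromal markers is on the array and it was detected in 0 samples. Blood markers (3 of 4 on the array) and endothelial markers (1 of 3) were detected in 0 samples and the epithelial marker on the array (1 of 2) in 1.

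**Figure D3:**
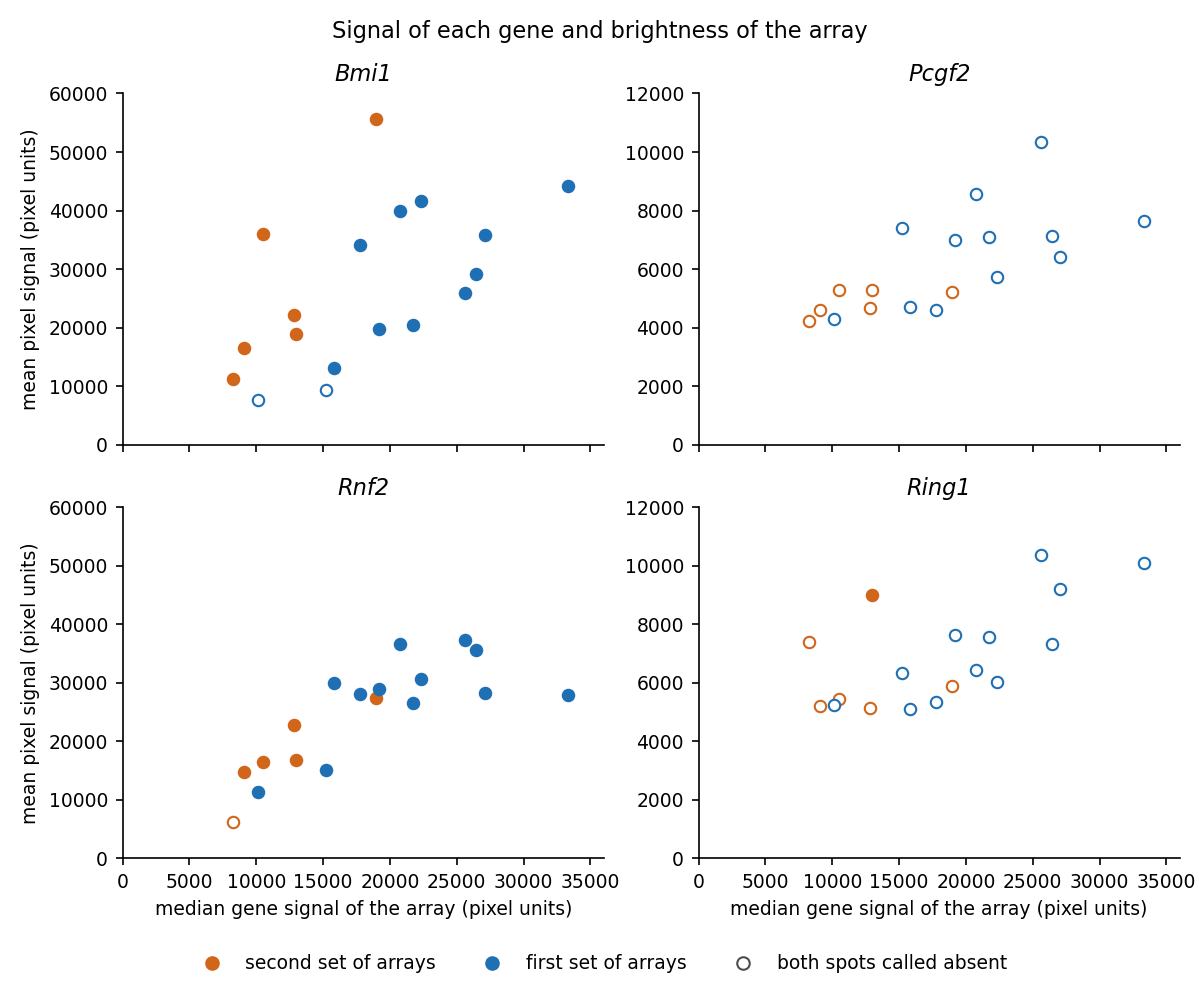
Mean pixel signal of each gene (vertical axis, in pixel units, with a shorter scale for Pcgf2 and Ring1) against the median gene signal of the array (horizontal axis, in pixel units) on 18 arrays. Colour gives the set, and open points mark arrays on which both spots were called absent. Rnf2 tracks brightness and is absent on the dimmest array, and Bmi1 is absent on 2 arrays of the first set.

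Bmi1, the PCGF partner that was detected, had normalised log2 signals of 13.98, 14.83, 13.50 and 15.02 in the 1-month samples #1, #8, #5 and #2. At 3 months it had 14.01, 12.14 and 13.52 in #2, #8 and #5. At 6 months it had 13.69, 12.59 and 14.99 in #6, #7 and #8. The undetected samples, 3 months #8 and 6 months #7, were the 2 lowest, and the highest sample of 6 months stood level with the highest of 1 month.

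At 12 months Bmi1 had 13.94, 14.50 and 14.50 in #2, #7 and #3, and at 24 months 14.12 and 14.43 in #1 and #2. The lowest 24-month value lay above the highest 3-month value, 14.01, and all other pairs of ages overlapped. That gap sets 2 samples against 3 from the other set of arrays. How many of the tested genes show such a gap was not counted, so it is not read as a difference. The averages were 14.33 ± 0.72, 13.22 ± 0.97, 13.76 ± 1.203, 14.31 ± 0.32 and 14.27 ± 0.22 at 1, 3, 6, 12 and 24 months (SD, n = 4, 3, 3, 3 and 2). In order of level 1 month was followed by 12, 24, 6 and 3 months, and no neighbours in that order differed by more than the larger of their SDs.

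Bmi1 did not pass the test at any age. In limma's F-test over the 5 ages its adjusted p was 0.560 (0% of 38 tested genes called), and its slope was 0.02 log2 units per doubling of age (SE 0.14, 95% interval -0.27 to 0.31, limma adjusted p = 0.970, 0% called). At 24 months it differed from 1 month by -0.06 log2 units (SE 0.68, interval -1.57 to 1.45, limma adjusted p = 0.994, 0% of genes called). At 12 months the difference was -0.02 (SE 0.60, interval -1.35 to 1.31, limma adjusted p = 0.995, 0% called). At an unadjusted p under 0.05, limma gave 13 of the 38 genes in the F-test, 4 in the slope and 5, 6, 2 and 6 at 3, 6, 12 and 24 months, with neither Bmi1 nor Rnf2 among them. The intervals leave room for more than a doubling in either direction.

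The lower averages of Bmi1 at 3 and 6 months lay with the undetected samples. At 3 months the difference from 1 month was -1.11 log2 units (SE 0.60, interval -2.44 to 0.22, limma adjusted p = 0.447, 0% of genes called), and -0.57 without 3 months #8. At 6 months it was -0.57 (SE 0.60, interval -1.90 to 0.76, limma adjusted p = 0.686, 2.63% called), and 0.0096 without 6 months #7. With the set added to the model these differences were -0.68 and -0.14, and within the first set alone -0.54 and -0.0079, none past the threshold. At 24 months against 1 month, Bmi1 stood at -0.54 with the set in the model and at -0.68 within the second set, also short of it.

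**Figure D4:**
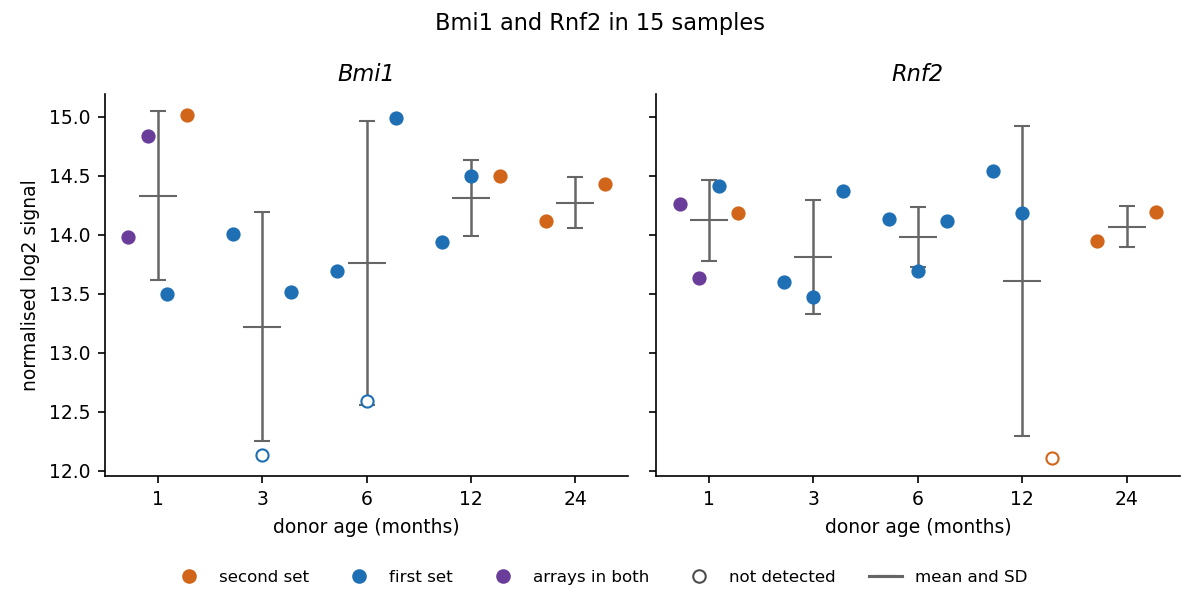
Normalised log2 signal of Bmi1 and Rnf2 (vertical axis) in 15 samples by donor age in months, with the mean and SD of each age. Open points are samples in which the gene was not detected, and colour gives the set of arrays. The lowest Bmi1 points are open at 3 and 6 months (12.14 and 12.59), and the lowest Rnf2 point is open at 12 months (12.11).

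Rnf2, the ligase that was detected, had normalised log2 signals of 14.26, 13.63, 14.41 and 14.18 in the 1-month samples #1, #8, #5 and #2. At 3 months it had 13.60, 13.47 and 14.37 in #2, #8 and #5. At 6 months it had 14.13, 13.69 and 14.12 in #6, #7 and #8. These 10 samples lay within 1 log2 unit of each other.

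At 12 months Rnf2 had 14.54, 14.18 and 12.11 in #2, #7 and #3, and at 24 months 13.95 and 14.19 in #1 and #2. The 12-month samples held both the highest and the lowest value of the series, and all ages overlapped. Averages were 14.12 ± 0.34, 13.81 ± 0.48, 13.98 ± 0.25, 13.61 ± 1.31 and 14.07 ± 0.17 at 1, 3, 6, 12 and 24 months (SD, n = 4, 3, 3, 3 and 2). From the highest the order was 1, 24, 6, 3 and 12 months, again with no neighbours further apart than the larger SD.

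Rnf2 passed no test over all samples either. Its adjusted p in limma's F-test was 0.984, and its slope was -0.05 log2 units per doubling of age (SE 0.10, interval -0.26 to 0.15, limma adjusted p = 0.881). At 24 months the difference from 1 month was -0.05 (SE 0.56, interval -1.29 to 1.18, limma adjusted p = 0.994). At 6 months it was -0.14 (SE 0.49, limma adjusted p = 0.884) and at 3 months -0.31 (SE 0.49, limma adjusted p = 0.8287). The shares of genes called in these comparisons are those given for Bmi1.

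A single sample set the 12-month value of Rnf2. The difference from 1 month was -0.51 log2 units over all samples (SE 0.49, interval -1.60 to 0.58, limma adjusted p = 0.995) and 0.24 without 12 months #3, the sample in which the gene was called absent. Within the first set of arrays, which leaves that sample out, it was 0.46 (SE 0.40, limma adjusted p = 0.915). Within the second set, where that sample stands alone for 12 months, it was -2.12 (SE 0.18, limma adjusted p = 0.0196), past the threshold in a fit that assumes the lone sample varies like the others. The F-test within the second set, which rests on the same sample, gave Rnf2 an adjusted p of 0.045 in limma.

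**Figure D5:**
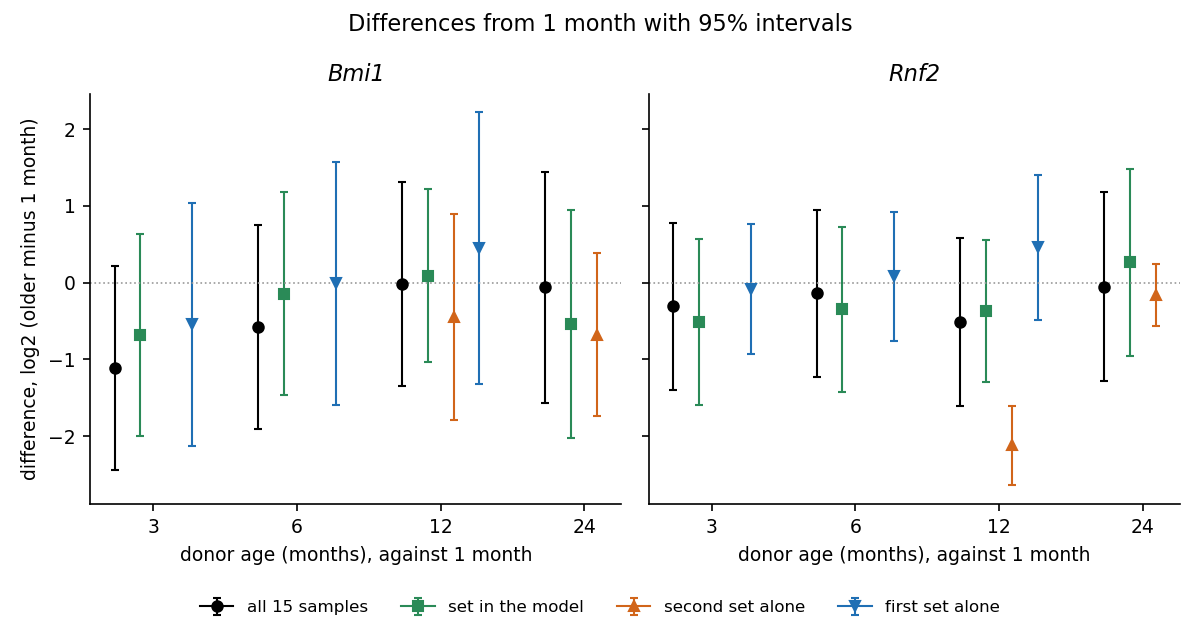
Difference in log2 units, older age minus 1 month (vertical axis), of Bmi1 and Rnf2 with 95% intervals from limma, at 4 ages in months. Markers give the fit over all 15 samples, with the set added to the model, and within each set, where no marker means that a set lacks that age. All intervals include 0 except that of Rnf2 at 12 months within the second set (-2.12).

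Neither detected member was called between the sets of arrays. Fitted beside age, the second set stood above the first by 0.91 log2 units for Bmi1 (SE 0.51, limma adjusted p = 0.270) and at -0.53 for Rnf2 (SE 0.42, limma adjusted p = 0.456), while 23.7% of the 38 genes were called between the sets. Samples hybridised in both sets give the same contrast within a sample. For Bmi1 the second-set array was above the first-set array by 0.85 in 1 month #1 and by 1.17 in 1 month #8. For Rnf2 it was above by 0.30 and 0.92, the opposite sign to the fitted value. The fit also draws on the 12-month samples. There Rnf2 stood at 12.11 in #3 of the second set, where it was called absent, and at 14.54 and 14.18 in #2 and #7 of the first set. The part of 12 months #3 in the fitted sign was not tested.

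Repeat arrays of a sample differed widely in Bmi1. The 2 arrays of 12 months #2, both of the first set, gave Bmi1 signals of 39842 on the second array and 13000 on the first, a normalised difference of 1.63 log2 units. That was the largest but 1 among the 38 tested genes in this sample, whose median difference was 0.31. Rnf2 signals were 36580 and 29912 on the same arrays, and its normalised difference was 0.0035. The difference between arrays of a sample in Bmi1 exceeds every age difference reported for the gene over all samples.

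Within ages, Bmi1 was among the more variable genes tested. Its residual SD was 0.81 log2 units, rank 3 of 38 from the widest, and that of Rnf2 was 0.66, rank 8, against a median of 0.38. The Spearman correlation between Bmi1 and Rnf2 over the samples was -0.132 (n = 15). The tested genes whose pattern was most like that of Bmi1 were Eed (0.725) and Suz12 (0.536), core subunits of the PRC2 complex that methylates histone H3, and Smarcb1 (0.634), a SWI/SNF remodeller subunit. Those most like Rnf2 were Yy1 (0.636), a DNA-binding Polycomb partner, Bptf (0.595), a subunit of the NURF remodeller, and Rps27a (0.588), a housekeeping gene whose spots bleed on every array. These Spearman correlations share the arrays and their normalisation and describe likeness only.

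Whether paralogues change unequally with age could not be answered for either of the 2 pairs, because the undetected paralogue enters at background level. The slope of Bmi1 minus Pcgf2 within samples was 0.29 log2 units per doubling of age (SE 0.27, n = 15), made up of 0.02 for Bmi1 and -0.27 for Pcgf2, which was detected in 0 samples. The slope of Rnf2 minus Ring1 was -0.33 (SE 0.19, n = 15), made up of -0.05 for Rnf2 and 0.27 for Ring1, which was detected in 1. Without 12 months #3, where Rnf2 was called absent and Ring1, also called absent, had its highest value (12.32), it was -0.20. A Ring1 spot of that sample, amid a local background of 27730, had a normalised value of 14.28. These slopes describe background signals as much as the detected genes, and no test of them is read.

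The 24-month level of both detected genes depended on the scaling. In the authors' deposited table, where each gene is scaled to the housekeeping spots, the mean ratios of Bmi1 were 0.529, 0.343, 0.415, 0.381 and 0.282 at 1, 3, 6, 12 and 24 months. Those of Rnf2 in the authors' deposited table were 0.424, 0.387, 0.412, 0.357 and 0.255. On that scale the 24-month means are lowest for both genes, an order the quantile-normalised means do not show, though single samples of other ages were lower. All 5 housekeeping genes were marked as bleeding on all 18 arrays, with an average of 62211 to 63199 pixel units per array, so that the pixel signal behind the divisor hardly varied between bright and dim arrays. The mean ratios of Pcgf2 and Ring1 in the authors' deposited table lay between 0.080 and 0.123 at every age.

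Tested on log2 of these ratios (pseudocount 0.01), the 24-month samples differed from 1 month by -0.81 for Bmi1 (limma adjusted p = 0.480) and -0.66 for Rnf2 (limma adjusted p = 0.507), while the median of the 32 genes tested there was -0.50. Relative to that median, Bmi1 stood at -0.31 and Rnf2 at -0.16. Under housekeeping scaling of the spot signals the differences were -0.96 and -0.83 against a median gene at -0.26, and under median centring 0.0049 and 0.14 against 0.71. Neither gene passed the threshold under any scaling. The 24-month arrays all belong to the dimmer second set, and the part of brightness in this dependence was not tested.

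Of a list of 21 other PRC1 genes, 13 are on the array. Of these, 3 were detected in all samples (Cbx7 and Cbx8, chromodomain subunits that read methylated H3, and Phc2, a polyhomeotic subunit that helps complexes cluster), 7 in at most 1 sample and 4 of those in 0 (Phc1, Phc3, Scmh1 and Scml2). Over all 64 genes of the array, 40.6% were detected in at most 1 sample, 23.4% in 0 and 35.9% in at least 14. The share detected in all samples was not counted. The 6 listed PRC1 genes that were tested gave 0 calls in any comparison. Limma's unadjusted p was under 0.05 for 4 of the 6 in the F-test (13 of 38 over all genes), 1 in the slope (4 of 38), 0 at 3 months (5 of 38), 3 at 6 months (6 of 38), 0 at 12 months (2 of 38) and 2 at 24 months (6 of 38). In the slope over age 4 were higher and 2 lower. Against 1 month, 5 were higher and 1 lower at 3 months, with a median difference of 0.48 log2 units against -0.0026 over all 38 genes. At 6 months 3 were higher and 3 lower, with a median of 0.25 against -0.0012. At 12 months 4 were higher and 2 lower, with a median of 0.17 against 0.0020. At 24 months 3 were higher and 3 lower, with a median of -0.07 against -0.0012. The 6 differences there ran from -0.92 (SE 0.39, limma adjusted p = 0.285, for L3mbtl2, a subunit of a non-canonical PRC1) to 1.64 (SE 0.58, limma adjusted p = 0.202). The gene at 1.64 was detected in 2 of 15 samples, the fewest the filter allows. Its difference, and its part in the medians above, rest mostly on samples in which it was not detected.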

How the data were processed

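Per the labels, RNA was amplified with a linear kit, labelled with biotin and hybridised to a custom Oligo GEArray. Per the file headers, the deposited sheets list each spot's intensity (its pixels added up), the intensity of the local background, and calls made by the authors of presence and bleeding. Neither the rule behind the calls nor the scanner is stated there. The deposited value table holds a ratio, which on recomputation is the signal of a gene over the median of the housekeeping spots as the authors scaled it (largest difference 0.0071 over 49 genes). Columns of 5 arrays of other samples were not used.

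Intensity was divided by spot area, corrected with normexp (offset 50, spot signal alone) with limma 3.58.1 under R 4.3.3, and averaged over spots and arrays after quantile normalisation of 117 gene spots. Genes needed detection in 2 or more samples, which 38 had, and were fitted with lmFit and eBayes (5 ages, 10 residual degrees of freedom), with Benjamini-Hochberg adjustment over all 38 and a threshold of 0.05. Paralogue slopes were permuted with scipy 1.17.1, but no such test is reported, since a member of each pair lay at background. The fits were tested on simulated data. The members, lists and rules were chosen with earlier results of these data known. The genes named are the 4 members, the list of other PRC1 genes, housekeeping genes, and the 3 tested genes closest to Bmi1 and to Rnf2 by Spearman correlation. One gene of that list is not reported here by name. Promoter sequences are from RefSeq (GRCm38.p6), and all 4 genes were matched. The labels number the samples but do not say that cultures were independent, so p-values measure the spread between these samples.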

Additional observations from a re-analysis of the deposited data

How the results depend on the processing

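Bmi1 and Rnf2 were tested 378 times under 32 alternative settings, and 2 of these tests passed the threshold, both of Rnf2 within the second set of arrays (F-test adjusted p = 0.045 and -2.12 at 12 months), where 12 months #3 is the lone 12-month sample. The sign turned in 42 tests, none past the threshold, and at 3 months both genes kept a negative difference under all 31 alternatives. Several of these settings could not move a difference between ages. They are the changes of the gene filter and the removal of a sample whose age is outside the comparison. At 3 months each of them returned -1.11 for Bmi1 and -0.31 for Rnf2, so the 31 are not separate checks of the sign. The cause of the turns below was not tested.

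The Bmi1 slope (0.02) turned to -0.18 with housekeeping scaling, -0.0013 with median centring, -0.014 with the local background in normexp, -0.16 on the authors' ratios, -0.032 with the set in the model, -0.14 within the second set, and -0.012 over all 18 arrays. Bmi1 at 12 months (-0.02) turned to 0.056 on the first spot, 0.091 with the set in the model and 0.45 within the first set, and at 24 months (-0.06) to 0.0049 with median centring and 0.19 on the first array of each sample. The Rnf2 slope (-0.05) turned to 0.11 and its 12-month difference (-0.51) to 0.46 within the first set. At 6 months Rnf2 (-0.14) turned to 0.039 with the local background, 0.087 on the last spot, 0.083 within the first set and 0.012 on the first array. At 24 months it (-0.05) turned to 0.14 with median centring, 0.27 with the set in the model, 0.10 on the first array and 0.011 over all arrays. The slope of Bmi1 minus Pcgf2 (0.29) turned to -0.0069 with the local background and -0.053 on the authors' ratios. That of Rnf2 minus Ring1 (-0.33) turned to 0.076 within the first set and was -0.38 without division by spot area. These 2 slopes hold a paralogue at background level, so no test of them is read.

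Same-numbered samples did not deviate together (6 of 12 pairs above r = 0.1, range -0.42 to 0.40), so the numbers are not taken as pairing. With the replicate block the slopes were -0.025 for Bmi1 and 0.034 for Rnf2, Rnf2 stood at 0.27 at 6 months and 0.56 at 12 months, Bmi1 at 0.071 at 12 months, and the paralogue slopes were 0.0054 and -0.19.

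Leaving out each sample in turn gave Bmi1 slopes of -0.011 to 0.10 and differences of -1.50 to -0.57 at 3 months, -1.19 to 0.0096 at 6 months, -0.30 to 0.21 at 12 months and -0.34 to 0.17 at 24 months. For Rnf2 the slopes were -0.088 to 0.019 and the differences -0.59 to -0.14, -0.30 to 0.0040, -0.98 to 0.24 and -0.22 to 0.069 at 3, 6, 12 and 24 months. The paralogue slopes ran from 0.20 to 0.40 for Bmi1 minus Pcgf2 and from -0.43 (without 24 months #2) to -0.20 (without 12 months #3) for Rnf2 minus Ring1.

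The number of genes called over all ages (0) became 1 with median centring, 2 within the first set, 1 within the second, 9 with array weights, and 0 to 2 without a sample. At 6 months it (1) became 2 without background correction or on the first array and 3 within the first set. It became 0 with housekeeping scaling, median centring, no division by area, the authors' ratios, the set in the model, the replicate block, all 18 arrays or no filter, and 0 to 2 without a sample. At 12 months it (0) became 1 within either set. Ring1 detection (1 sample) fell to 0 where every spot had to be present. The number of arrays limits the precision: over all samples, the intervals of Bmi1 and Rnf2 for an older age against 1 month are each over 2 log2 units wide, and Pcgf2 and Ring1 levels are at or near background.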
